A study of Mus musculus with 6 samples.

Results

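Collagen chains and the matrix genes deposited with them were followed in RNA sequencing of adrenal glands from wild-type (WT) and Armc5 knockout (KO, labelled Armc5(-/-)) mice. A locus of the deposited count table was a member when its gene names held a collagen chain symbol (Col, a number, a, a number) or one of Dcn, Lum, Fn1, Fbn1, Sparc, Postn, Bgn, Lox and Pdgfra. This gave 53 of 59699 loci, of which 44 were collagen chains, and 47 passed the filter on low counts. All donors were females, 30 weeks old, of 129 sv X CD1 background, with 3 samples of each genotype, and the 2 groups differ in the labels by genotype alone. The labels state neither which part of Armc5 was deleted nor whether each sample was a separate animal or a pool, so the p-values rest on the spread among these 6 samples, which may in part be technical. The ARMC5 protein brings substrates to a cullin-based ubiquitin ligase.

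Collagens are trimers of chains that wind into a triple helix, and the chain genes fall into classes by the structure they build. Fibrillar collagens form the banded fibrils of connective tissue, type IV forms the sheet of basement membranes, type VI forms beaded microfilaments, and FACIT collagens sit on the surface of fibrils. In the adrenal gland a fibrous capsule encloses the cortex, and a basement membrane runs along the dense sinusoidal vessels between cords of steroid-producing cells. Fibroblasts of the capsule and stroma, marked by Pdgfra, are a main source of fibrillar collagen, while endothelial cells and pericytes also make basement membrane.

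Total counts per library ranged from 70547288 to 130573434, and the members took 0.366% to 0.474% of the counts of named loci. Armc5 stood at 26.8 ± 1.35 CPM in WT glands and 3.59 ± 0.0632 CPM in KO glands (SD, n = 3 each; CPM is the count divided by the TMM-scaled library size). The 6 measured loci of the steroidogenic cortex list summed to 22375 to 37556 CPM in WT glands and 18564 to 20730 in KO, and the 6 kidney markers to 0.561 to 1.20 CPM. Hepatocyte markers summed to 3528 CPM in KO replicate 3 and to 11.2 to 48.2 CPM in the other 5 libraries, and Apob, Ttr, Fgb and Fga among them were at 0 in at least 1 library. In bulk tissue, fewer cells of a type and less RNA per cell cannot be told apart.

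Across the genotypes no member passed the test. With edgeR's quasi-likelihood test, called at a Benjamini-Hochberg adjusted p under 0.05 over all tested loci, 0 of 47 members were called, against 393 of 21358 loci (1.84%; 1.41% higher and 0.431% lower in KO). Before adjustment, 11 members had p under 0.05, 6 higher and 5 lower in KO, which is 23.4% of them, beside 22.2% of all tested loci (12.5% higher and 9.73% lower). With the merged locus of Arfgap1 and Col20a1 left out, the same test gave 10 such members of 46. DESeq2 called 6 of the 47 members, namely Col27a1, Col7a1 and Col11a2 as higher and Col15a1, Col25a1 and Postn as lower. It called a similar share of all loci, 2626 of 21358, with 116 loci given no adjusted p. All KO libraries were above all WT libraries for 5 members (10.6%, beside 16.3% of all tested loci) and below for 4 (8.51%, beside 14.2%). The 5 include that merged locus, and Col17a1, which had at most 45 counts in a library.

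The median log2 fold change of the 47 members was -0.13, beside -0.0063 over all tested loci, and 32 of the 47 (68.1%) were negative, beside 50.7% of all loci. These signs depend on the scaling of the libraries, and 18 of the 47 were negative with library totals alone and with equal counts of Rn7sk. With library totals alone as the scale the median of the members was 0.084, and with equal counts of Rn7sk 0.061; the median of all loci was then 0.22 and 0.19, so the members stood -0.14 and -0.13 from it. Without WT replicate 2 the median of the members was -0.0016, with 24 of 48 negative, and without KO replicate 3 it was -0.23, with 33 of 47 negative.

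**Figure D1:**
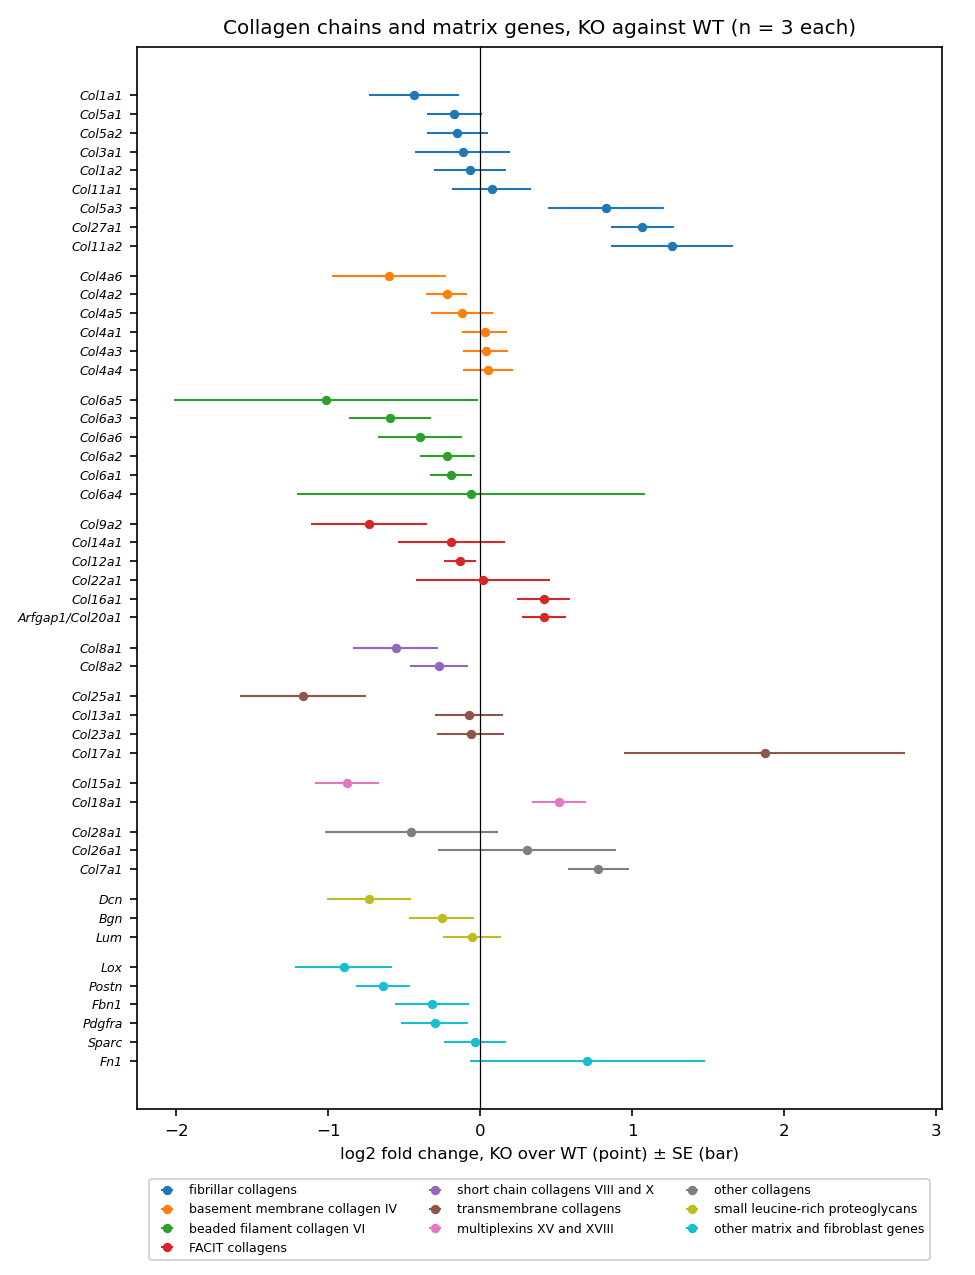
Log2 fold change of KO over WT (x axis, edgeR fit, bars are ± SE) for the 47 members that passed the count filter (y axis), coloured by class. All 6 type IV chains lie between -0.60 and 0.05, whereas Col15a1 (-0.88) and Col18a1 (0.52), the 2 multiplexins, lie on opposite sides of 0.

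Levels between genes were compared as CPM per kb of the deposited gene length, averaged over the 6 libraries. Sparc, a collagen-binding glycoprotein secreted by many stromal and endothelial cells, was far above the other members at 413 CPM per kb. The highest collagen chains were Col6a1 (60.6 CPM per kb), Col4a1 (42.5), Col4a2 (26.8) and Col5a3 (20.0), and the proteoglycan genes Bgn and Dcn stood at 28.9 and 18.8 CPM per kb. The type VI chains Col6a2 and Col6a3 were far below Col6a1, at 2.49 and 2.69 CPM per kb. The chains of type I collagen, the main fibril of skin and bone, were lower, at 4.52 CPM per kb for Col1a1 and 3.34 for Col1a2. The deposited lengths lay within 1% of the exon length in GENCODE M21 for 33 of the 53 members, and lengths bear on the order of levels and on the weight of each chain in a share. With the GENCODE lengths the mean fibrillar share was 18.1% in WT and 23.1% in KO. The deposited Col6a1 locus runs from 76672396 to 76726168 on chromosome 10, and the GENCODE M21 gene from 76708792 to 76726168. Whether all counts of this locus come from Col6a1 was not tested.

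As a share of all collagen counts per kb within a library, type IV took 35.7% ± 3.37 in WT and 35.1% ± 3.92 in KO, and type VI took 34.6% ± 3.95 and 30.2% ± 3.27 (SD, n = 3 each). The type VI share rests mostly on Col6a1, and no share without Col6a1 was computed. Fibrillar collagens took 17.4%, 18.4% and 17.1% in the WT libraries and 21.3%, 29.1% and 17.6% in the KO libraries. The share was higher in KO replicates 1 and 2 than in any WT library, while KO replicate 3 lay within the WT range. Without Col5a3 alone, left out after its values were seen, the fibrillar shares were 9.96%, 13.9% and 10.3% in the WT libraries and 10.8%, 12.8% and 11.6% in the KO libraries, and the groups overlapped. The merged locus of Arfgap1 and Col20a1 was left out of these shares. These shares do not depend on how libraries are scaled.

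**Figure D2:**
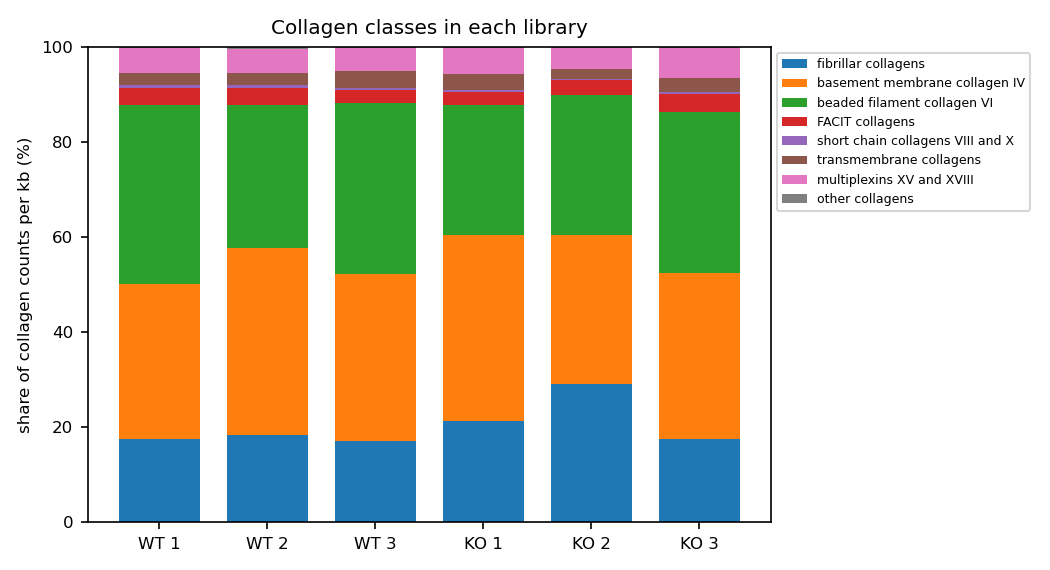
Share of collagen counts per kb (y axis, %) taken by each class in each of the 6 libraries (x axis). Basement membrane and beaded filament collagens take most of every bar, and the fibrillar share is largest in KO replicate 2, at 29.1%.

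The start regions of a few members are shown because their genes lie head to head or because their log2 fold changes had opposite signs. RefSeq promoter windows (build GRCm38.p6, 250 bases before to 50 after the start) were matched for 40 of the 53 members. Col4a1 and Col4a2 encode the 2 chains of the common type IV trimer and are read in opposite directions from 1 short interval. Their windows, chr8:11312777-11313076 on the minus strand and chr8:11312555-11312854 on the plus strand, share 78 bases, printed in capitals in both.
Col4a1: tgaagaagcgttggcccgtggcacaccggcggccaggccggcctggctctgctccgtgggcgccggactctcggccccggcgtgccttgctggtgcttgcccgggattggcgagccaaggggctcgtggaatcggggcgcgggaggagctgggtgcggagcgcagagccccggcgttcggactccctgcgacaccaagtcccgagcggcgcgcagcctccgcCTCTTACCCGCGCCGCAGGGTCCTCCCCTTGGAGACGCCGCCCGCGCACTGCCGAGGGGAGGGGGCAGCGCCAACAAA
Col4a2: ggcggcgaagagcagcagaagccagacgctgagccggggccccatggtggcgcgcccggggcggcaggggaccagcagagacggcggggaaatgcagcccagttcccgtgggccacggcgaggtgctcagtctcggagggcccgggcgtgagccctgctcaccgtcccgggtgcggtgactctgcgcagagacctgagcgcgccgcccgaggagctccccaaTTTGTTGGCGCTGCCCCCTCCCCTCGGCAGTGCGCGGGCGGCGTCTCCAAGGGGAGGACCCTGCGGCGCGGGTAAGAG

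Col15a1 and Col18a1 are the 2 multiplexins, whose log2 fold changes had opposite signs. In the windows below, capitals mark GGGCGG or its reverse complement CCGCCC, the letters of a GC box, searched on both strands. That motif occurs in 35.7% of 32851 promoter windows. Col18a1 is shown at 2 starts, chr10:77166481-77166780 and chr10:77113656-77113955, both on the minus strand, and the Col15a1 window is chr4:47207762-47208061 on the plus strand.
Col15a1: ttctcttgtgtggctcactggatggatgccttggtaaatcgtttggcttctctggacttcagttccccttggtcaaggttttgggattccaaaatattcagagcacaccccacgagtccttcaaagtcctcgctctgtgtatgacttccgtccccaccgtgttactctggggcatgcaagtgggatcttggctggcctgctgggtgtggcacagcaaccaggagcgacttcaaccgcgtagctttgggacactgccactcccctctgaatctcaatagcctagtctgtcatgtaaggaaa
Col18a1, upstream start: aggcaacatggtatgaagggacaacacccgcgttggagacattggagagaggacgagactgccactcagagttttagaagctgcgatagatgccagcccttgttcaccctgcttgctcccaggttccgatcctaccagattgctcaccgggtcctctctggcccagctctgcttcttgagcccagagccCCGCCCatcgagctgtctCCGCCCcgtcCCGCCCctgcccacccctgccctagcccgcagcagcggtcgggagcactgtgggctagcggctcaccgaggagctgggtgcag
Col18a1, downstream start: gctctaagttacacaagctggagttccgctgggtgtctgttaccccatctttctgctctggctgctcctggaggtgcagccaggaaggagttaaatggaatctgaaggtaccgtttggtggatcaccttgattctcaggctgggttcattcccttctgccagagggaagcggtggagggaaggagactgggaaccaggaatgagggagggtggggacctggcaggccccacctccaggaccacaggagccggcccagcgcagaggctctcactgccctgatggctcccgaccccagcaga
The upstream Col18a1 window holds 3 such matches, and the other 2 windows hold none. The Col15a1 window ends before the deposited Col15a1 locus begins, at 47208161, so it does not cover the start of the counted locus. The counts do not tell the 2 Col18a1 starts apart.

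Of 9 tested fibrillar chains 0 were called, and 5 were negative, with a median log2 fold change of -0.07; 1 was negative with library totals alone and with equal Rn7sk counts. The 3 chains with the largest positive values were Col11a2, Col27a1 and Col5a3. Col27a1, a fibrillar chain best known from cartilage (GRCm38 chromosome 4, 63214004 to 63334991), stood at 15.6, 18.9 and 13.8 CPM in WT glands and at 35.4, 40.4 and 25.4 CPM in KO glands. The lowest KO library lay above the highest WT library. The means were 16.1 ± 2.57 and 33.7 ± 7.67 CPM (SD, n = 3 each), a fold of 2.10 and a log2 fold change of 1.07 (SE 0.20), and edgeR's adjusted p was 0.058. Col27a1 was called with library totals alone (edgeR adjusted p = 0.0467), with equal Rn7sk counts (0.0273) and with at least 1 CPM required in 3 libraries (0.0493). With 1 library left out the adjusted p ran from 0.0599 to 0.205, and Col27a1 was not called in any of those 6 fits.

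Col5a3, a type V chain that regulates fibril diameter, stood at 110, 81.3 and 110 CPM in WT glands and at 156, 284 and 96.8 CPM in KO glands. KO replicates 1 and 2 were above all WT libraries and KO replicate 3 was not (log2 fold change 0.83, SE 0.38, edgeR adjusted p = 0.261). Without KO replicate 2 the log2 fold change was 0.33. Col11a2, a cartilage fibril chain, was low, at 0.556 ± 0.244 CPM in WT glands and 1.34 ± 0.261 in KO glands (SD, n = 3 each), with no overlap between the groups and an edgeR adjusted p of 0.146. Its locus lies inside the merged loci Zbtb22/Tapbp and Kank3/Ndufa7 on the same strand, which held 88503 and 47329 counts over the 6 libraries against 598 for Col11a2.

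The familiar fibril chains were named after their values were seen. Col1a1 stood at 23.0, 48.7 and 30.6 CPM in WT glands and at 19.9, 25.4 and 30.3 CPM in KO glands, and Col3a1, the reticular fibre chain, at 28.7, 49.8 and 25.0 CPM in WT glands and 23.9, 30.3 and 41.3 CPM in KO glands. In both genes WT replicate 2 was the highest library and the groups overlapped. The log2 fold changes were -0.44 (SE 0.30) for Col1a1, -0.12 (SE 0.31) for Col3a1, -0.07 (SE 0.24) for Col1a2 and -0.17 (SE 0.18) for Col5a1, with edgeR adjusted p from 0.428 to 0.899. Without WT replicate 2 that of Col1a1 was -0.069. Col5a1, the type V chain that starts fibrils, stood at 63.8, 96.1 and 76.7 CPM for WT and at 61.1, 81.6 and 67.5 CPM for KO. The values of Col1a2, Col3a1 and Col5a1 turned positive with library totals alone, with equal Rn7sk counts and without WT replicate 2, and that of Col3a1 also without KO replicate 1. The deposited locus of Col3a1 runs over Col5a2 on the opposite strand for 128962 bases, and whether the counting used strand is not given in the sources used here. Col5a2 and Col11a1 had log2 fold changes of -0.15 (SE 0.20) and 0.08 (SE 0.26).

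Of the 6 type IV chains 0 were called, with 3 positive and 3 negative and a median log2 fold change of -0.045 (0.17 with library totals alone). Col4a1 stood at 258, 375 and 310 CPM in WT glands and at 331, 312 and 319 CPM in KO glands, and the KO values all lay inside the WT range (log2 fold change 0.03, SE 0.15, edgeR adjusted p = 0.929). Col4a2 stood at 169, 231 and 194 CPM in WT glands and at 181, 156 and 173 CPM in KO glands (log2 fold change -0.22, SE 0.14, edgeR adjusted p = 0.385). The chains of the alpha 3, 4 and 5 trimer, which in kidney forms the glomerular membrane, were lower, with means from 7.25 to 13.4 CPM in either group. Their log2 fold changes were 0.04 (SE 0.15) for Col4a3, 0.05 (SE 0.16) for Col4a4 and -0.12 (SE 0.20) for Col4a5. Col4a6, the rarest chain, stood at 1.25, 2.12 and 0.872 CPM for WT and at 0.706, 1.05 and 1.05 CPM for KO, with overlapping groups (log2 fold change -0.60, SE 0.38, edgeR adjusted p = 0.390). Without WT replicate 2 the log2 fold change was -0.17 for Col4a6 and -0.076 for Col4a2.

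Of the 6 type VI chains 0 were called and 6 were negative, with a median log2 fold change of -0.31; with library totals alone and with equal Rn7sk counts 3 were negative, and the medians were -0.077 and -0.085. Col6a1 stood at 292, 259 and 303 CPM in WT glands and at 208, 262 and 277 CPM in KO glands, with overlapping groups (log2 fold change -0.19, SE 0.14, edgeR adjusted p = 0.446). It turned to 0.041 with library totals alone and 0.011 with equal Rn7sk counts. Col6a3, the large chain that carries the cleaved fragment endotrophin, stood at 27.7, 59.1 and 50.8 CPM in WT glands and at 29.0, 29.4 and 32.7 CPM in KO glands. Its 3 KO libraries were close together and WT replicate 1 lay below all of them (log2 fold change -0.59, SE 0.27, edgeR adjusted p = 0.254). Without WT replicate 1 it was called, with a log2 fold change of -0.86 and an edgeR adjusted p of 0.0399, and without WT replicate 2 the log2 fold change was -0.35 and the adjusted p 0.461. Col6a6 stood at 2.68, 2.24 and 1.87 CPM for WT and at 1.28, 1.60 and 2.27 CPM for KO (log2 fold change -0.40, SE 0.28). Col6a5 was at 14.2 CPM in WT replicate 2 and between 1.38 and 5.01 CPM elsewhere (log2 fold change -1.01, SE 1.00). Col6a2 had a log2 fold change of -0.22 (SE 0.18), and Col6a4, at most 0.263 CPM, one of -0.06 (SE 1.15).

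The 6 tested FACIT loci had a median log2 fold change of -0.057 and none was called; 1 of them is a merged locus of Arfgap1 and Col20a1, and without it the median was -0.13. Col12a1 was even among the WT libraries, at 53.6, 53.3 and 53.2 CPM, and stood at 42.2, 52.5 and 51.3 CPM in KO glands, so that the groups did not overlap although the log2 fold change was -0.13 (SE 0.11, edgeR adjusted p = 0.491). With library totals alone it was 0.095, and with equal Rn7sk counts 0.065. Col16a1 stood at 8.98, 12.4 and 9.86 CPM for WT and at 11.7, 14.3 and 15.7 CPM for KO (log2 fold change 0.42, SE 0.17, edgeR adjusted p = 0.224). Col14a1, or undulin, stood at 18.2, 24.1 and 12.1 CPM for WT and at 10.2, 14.9 and 22.6 CPM for KO, with each group spanning much the same range (log2 fold change -0.19, SE 0.35). Col22a1 and Col9a2 had log2 fold changes of 0.02 (SE 0.44) and -0.73 (SE 0.38). The only locus that names Col20a1 merges it with Arfgap1, a regulator of Golgi transport, and its 33.9 CPM (WT) and 45.4 CPM (KO) cannot be assigned to the collagen.

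The 2 multiplexins, basement membrane collagens with heparan or chondroitin sulfate chains whose C-terminal ends release restin and endostatin, had log2 fold changes of opposite sign without either being called. Col15a1 (chromosome 4, 47208161 to 47313167) stood at 23.5, 39.2 and 35.1 CPM in WT glands and at 15.3, 17.7 and 20.3 CPM in KO glands. Every KO library lay below every WT library, a fold of 1.83 on the lower side (log2 fold change -0.88, SE 0.21, edgeR adjusted p = 0.0892). Without WT replicate 1 Col15a1 was called, with a log2 fold change of -1.07 and an edgeR adjusted p of 0.0414, and without each of the other libraries the adjusted p was up to 0.253. Col18a1 (chromosome 10, 77052178 to 77166548) stood at 46.1, 37.2 and 35.4 CPM in WT glands and at 55.1, 45.8 and 69.2 CPM in KO glands. Only KO replicate 2 fell within the WT range (log2 fold change 0.52, SE 0.18, edgeR adjusted p = 0.170). Col18a1 shares 8825 bases with the deposited locus of Slc19a1 on the opposite strand, which held 9815 counts in all against 30854 for Col18a1.

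Among the transmembrane collagens, Col25a1, which is known from neurons and motor nerve contacts, stood at 2.58, 5.27 and 6.07 CPM in WT glands and at 1.29, 2.85 and 2.07 CPM in KO glands. The highest KO library was above the lowest WT library (log2 fold change -1.17, SE 0.42, edgeR adjusted p = 0.178). Col23a1 stood at 20.5, 26.4 and 31.9 CPM for WT and at 29.1, 19.1 and 27.2 CPM for KO, and Col13a1 between 4.33 and 6.45 CPM in all libraries. They had log2 fold changes of -0.06 and -0.07, which turned to 0.16 for each with library totals alone and to 0.14 and 0.13 with equal Rn7sk counts. Col13a1 lies wholly within the deposited locus of Tysnd1 on the opposite strand. Col17a1, the hemidesmosome collagen, was near the limit of counting, with 0, 17 and 7 counts in WT and 33, 13 and 45 in KO.

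Col7a1, the anchoring fibril of the skin, stood at 2.59, 2.995 and 2.04 CPM in WT glands and at 4.22, 4.89 and 3.98 CPM in KO glands. The groups did not overlap and the fold was 1.71 (log2 fold change 0.78, SE 0.20, edgeR adjusted p = 0.101). The short chain collagens Col8a1 and Col8a2, which form hexagonal lattices around vessels, had log2 fold changes of -0.56 (SE 0.28) and -0.27 (SE 0.19), with edgeR adjusted p of 0.296 and 0.437. Col8a1 stood at 3.01, 5.73 and 3.43 CPM for WT and at 2.44, 3.08 and 2.76 CPM for KO, and Col8a2 between 2.06 and 3.01 CPM in all libraries. Without WT replicate 2 the log2 fold change of Col8a1 was -0.20. Col28a1 and Col26a1 had log2 fold changes of -0.45 (SE 0.57) and 0.31 (SE 0.59). Col9a1 and Col10a1 had no counts in any library, which allows up to 3 counts per library, or 0.0232 to 0.0394 CPM, a limit that covers counting error only. Col2a1 had 0 counts in each WT library and 3, 8 and 6 in KO, and Col9a3, Col19a1 and Col24a1 had at most 24 counts in a library; these 6 loci did not pass the filter.

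**Figure D3:**
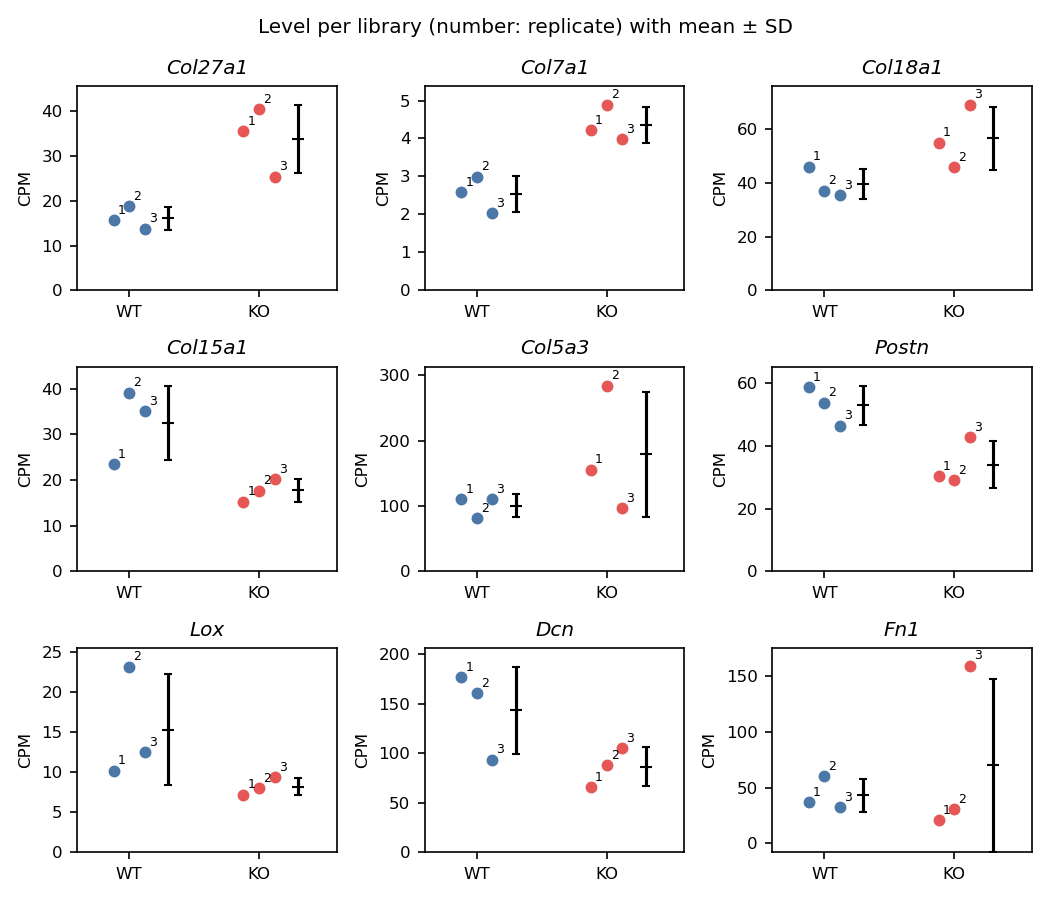
Level in each library (y axis, CPM of the TMM-scaled library; numbers mark the replicate) for 9 members in WT and KO, with the mean ± SD beside the points. Col27a1, Col7a1, Col15a1, Postn and Lox show no overlap between the groups, and the Fn1 mean of KO rests on replicate 3, at 160 CPM.

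The small leucine-rich proteoglycans bind collagen fibrils and set their spacing, and all 3 members had negative log2 fold changes without being called, while Lum was positive with both other scalings. Dcn, decorin, stood at 177, 160 and 93.6 CPM in WT glands and at 66.2, 88.1 and 105 CPM in KO glands. WT replicate 3 lay within the KO range, and the log2 fold change was -0.73 (SE 0.28, edgeR adjusted p = 0.196). Bgn, biglycan, stood at 165, 242 and 175 CPM for WT and at 169, 124 and 195 CPM for KO, with overlapping groups and a log2 fold change of -0.25 (SE 0.22), which was -0.045 without WT replicate 2. Lum, lumican, stood at 12.7 ± 2.1 and 12.2 ± 2.38 CPM (SD, n = 3 each). The log2 fold change of Lum turned from -0.05 to 0.18 with library totals alone and to 0.17 with equal Rn7sk counts. The deposited locus Bcap31/Idh3g on the opposite strand spans the whole of Bgn.

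Postn, periostin, a matricellular protein of remodelling connective tissue, stood at 58.9, 53.8 and 46.5 CPM in WT glands and at 30.4, 29.1 and 42.8 CPM in KO glands. All 3 KO libraries lay below the WT libraries, a fold of 1.56 on the lower side (log2 fold change -0.64, SE 0.18, edgeR adjusted p = 0.116). Lox, lysyl oxidase, which cross-links collagen and elastin, stood at 10.2, 23.1 and 12.5 CPM in WT glands and at 7.20, 8.04 and 9.35 CPM in KO glands. These groups did not overlap either, but WT replicate 2 held the highest value by far. The log2 fold change of Lox was -0.90 (SE 0.32, edgeR adjusted p = 0.176) and was -0.45 without WT replicate 2.

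Fn1, Fbn1 and Pdgfra were named outside the rule, after their values were seen. Fn1, fibronectin, stood at 36.7, 60.0 and 32.5 CPM in WT glands and at 20.4, 30.3 and 160 CPM in KO glands. KO replicate 3, the library with 295610 counts of Alb against at most 1289 in the others, was the highest, while KO replicates 1 and 2 were the lowest of the 6. The log2 fold change was 0.70 (SE 0.77, edgeR adjusted p = 0.629) with all libraries and -0.76 without KO replicate 3. Liver cells secrete plasma fibronectin, and the part of hepatocyte RNA in this value was not tested. Fbn1, the microfibril protein fibrillin 1, and Pdgfra, the fibroblast receptor for platelet-derived growth factor, had log2 fold changes of -0.32 (SE 0.24) and -0.30 (SE 0.22), and Sparc of -0.03 (SE 0.20). Without WT replicate 2 they were -0.018 for Fbn1 and -0.11 for Pdgfra. Sparc stood at 2409, 1569 and 2177 CPM for WT and at 1830, 2366 and 1815 CPM for KO, with overlapping groups. The log2 fold change of Sparc turned to 0.21 with library totals alone and to 0.16 with equal Rn7sk counts. Fbn1 shares 103488 bases with the deposited locus of Secisbp2l on the same strand.

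Ratios between chains within a library do not depend on scaling and were compared for 10 pairs that share a trimer, a class or a start region. The ratio of Col18a1 to Col15a1 counts per kb was 1.73, 0.835 and 0.889 in WT and 3.16, 2.28 and 3.002 in KO, so that all 3 KO libraries were above the WT libraries. This ratio rests on the same counts as the opposite signs of these 2 genes above and adds no support to them. The ratio of Col4a1 to Col4a2 was 1.41, 1.49 and 1.47 in WT and 1.68, 1.84 and 1.70 in KO, a narrow spread with no overlap. Col1a1 to Col1a2, the chains of type I collagen, gave 1.44, 1.58 and 1.50 in WT and 1.01, 1.20 and 1.30 in KO, the KO values being lower. The exact two-sided permutation test gave p = 0.1 for each of these 3 pairs, the smallest that 3 against 3 allows, and 0.333 after Benjamini-Hochberg adjustment over the 10 pairs. The other 7 pairs overlapped between the groups, with exact permutation p from 0.3 to 1. The ratio of Col4a3 to Col4a4, another pair of facing genes, was 0.602 ± 0.0444 in WT and 0.594 ± 0.0418 in KO, and that of Col5a1 to Col5a2 was 9.52 ± 0.758 and 9.51 ± 1.21 (SD, n = 3 each).

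**Figure D4:**
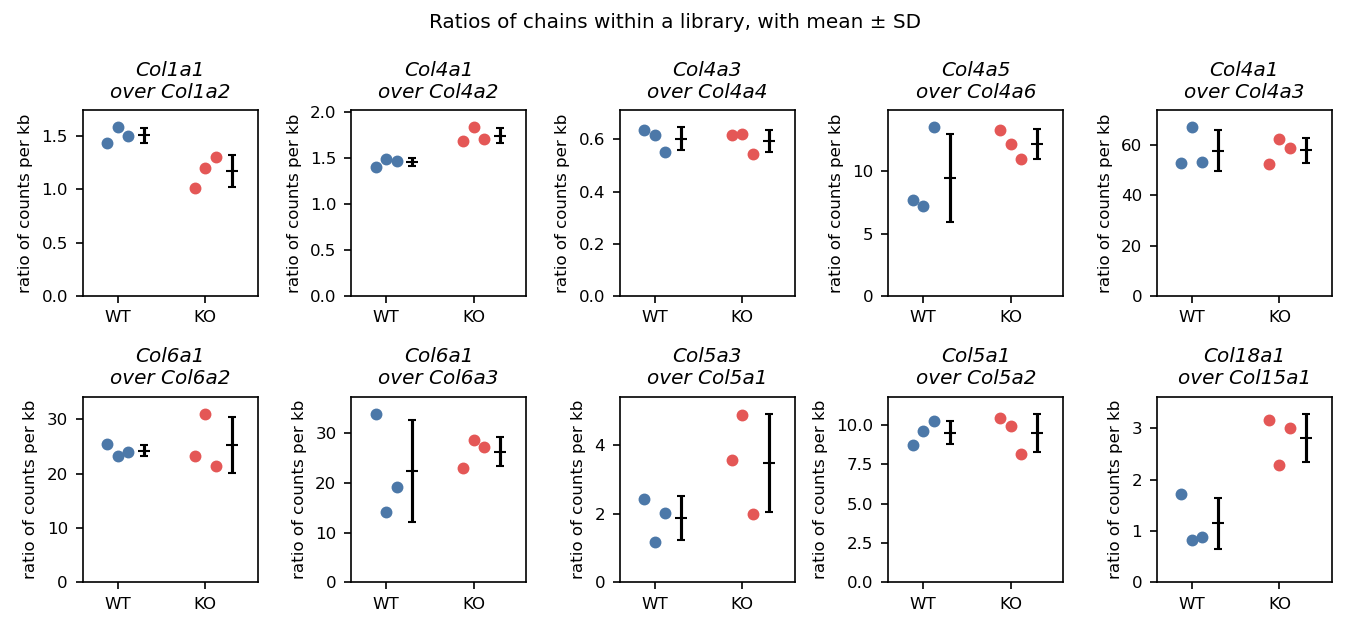
Ratio of counts per kb of 1 chain to another within each library (y axis) for 10 pairs in WT (blue) and KO (red), with the mean ± SD. The groups separate for Col1a1 over Col1a2, Col4a1 over Col4a2 (1.46 ± 0.0458 against 1.74 ± 0.0824) and Col18a1 over Col15a1, and overlap for the other 7 pairs.

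Genes that make, cut, bind and degrade collagen were read from lists that hold no member. Of 18 tested genes of collagen modification and folding, 0 were called, 13 were negative and the median log2 fold change was -0.13; 8 were negative with library totals alone and with equal Rn7sk counts. P4hb, the protein disulfide isomerase subunit of prolyl hydroxylase, stood at 355 ± 14.4 CPM in WT glands and 257 ± 9.14 in KO glands, and Colgalt1, which adds galactose to hydroxylysine, at 79.0 ± 4.32 and 38.9 ± 15.0 CPM (SD, n = 3 each). For both, every KO library lay below every WT library, with edgeR adjusted p of 0.0562 and 0.0977. With edgeR, P4hb was called with at least 1 CPM required in 3 libraries and Colgalt1 without KO replicate 2 (adjusted p = 0.0461). With 1 library left out edgeR's adjusted p reached 0.208 for P4hb and 0.237 for Colgalt1. DESeq2, which called 2626 of 21358 tested loci, called both. Of the list genes named below DESeq2 also called Mrc2, Timp4, Lamb2, Nid2, Efemp1, Efemp2, Smad3, Tgfbr2 and Ccn2. Loxl1, Tll1, Ddr1 and Ddr2 were not called by DESeq2. Of 10 genes of procollagen cleavage and cross-linking, 0 were called and Loxl1 and Tll1 had the smallest p, with log2 fold changes of -0.36 and -0.38, and of -0.074 and -0.038 without WT replicate 2.

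Of 12 genes of collagen breakdown and its inhibitors, 0 were called, 10 were negative and the median was -0.33 (7 with library totals alone, 9 with equal Rn7sk counts). Mrc2, the endocytic receptor for collagen fragments, stood at 22.8 ± 4.8 CPM in WT glands and 12.7 ± 1.93 in KO glands (edgeR adjusted p = 0.0795), and Timp4, a metalloproteinase inhibitor, at 2.96 ± 1.41 and 0.774 ± 0.442 CPM (adjusted p = 0.132; SD, n = 3 each). Among 6 tested collagen receptors, 0 were called, and the 2 discoidin domain receptors differed in sign, with Ddr1 at 0.36 (SE 0.12) and Ddr2 at -0.48 (SE 0.18) on the log2 scale, the latter being -0.28 without WT replicate 2. Of 15 laminin, nidogen, perlecan and agrin genes, the partners of type IV collagen in the basement membrane, 0 were called, 10 were negative and the median was -0.13; 4 were negative with library totals alone and with equal Rn7sk counts. Lamb2 stood at 108 ± 7.51 and 79.4 ± 5.01 CPM (edgeR adjusted p = 0.0647) and Nid2 at 32.8 ± 7.12 and 22.2 ± 0.23 CPM (0.130; SD, n = 3 each), and with 1 library left out the adjusted p of Nid2 ran from 0.0414, without WT replicate 1, to 0.296.

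Of 20 other proteoglycan and elastic fibre genes 0 were called, 10 were positive and 10 negative; 6 and 7 were negative with the 2 other scalings. The paralogues Efemp1 and Efemp2, which encode fibulins, had opposite signs, Efemp1 at 48.9 ± 8.97 CPM in WT against 84.2 ± 4.93 for KO and Efemp2 at 33.5 ± 1.15 against 24.8 ± 1.29 (SD, n = 3 each). Neither was called (edgeR adjusted p = 0.0567 and 0.063), although edgeR called Efemp1 with library totals alone, with equal Rn7sk counts, with at least 1 CPM required and without WT replicate 2; with 1 library left out its adjusted p ran from 0.0377 to 0.205. For each of the 2 genes the groups did not overlap.

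The 1 gene of these lists called in the reported edgeR fit was Smad3, the transducer of TGF beta signals to the nucleus. It is on a list of 15 TGF beta ligands, receptors and targets. Smad3 fell in KO from 113 ± 10.3 to 70.8 ± 5.18 CPM (SD, n = 3 each), -0.67 on the log2 scale (SE 0.10, edgeR adjusted p = 0.0405). It was called with either of WT replicates 1 and 2 left out, and not without WT replicate 3 (edgeR adjusted p = 0.138), KO replicate 1 (0.175), KO replicate 2 (0.154) or KO replicate 3 (0.101). With library totals alone the log2 fold change was -0.45 and the adjusted p 0.0756, and with equal Rn7sk counts -0.47 and 0.175. The list's median was -0.32, with 10 negative genes (8 with either other scaling), and 7 of its genes had an unadjusted p under 0.05 on the lower side and 2 on the higher side, of 15 tested, beside 9.73% lower and 12.5% higher of all tested loci. Named outside the rule, after their values were seen, Tgfbr2, the type II receptor, stood at 145 ± 13.4 CPM in WT glands and 99.1 ± 11.1 in KO glands, and the fibrosis-linked target Ccn2 at 80.1 ± 11.3 and 53.1 ± 4.35 CPM (SD, n = 3 each). By edgeR the adjusted p was 0.0697 for Tgfbr2 and 0.0723 for Ccn2, and with 1 library left out that of Ccn2 ran from 0.0459, without WT replicate 1, to 0.233.

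Markers of stromal and other cell types had these values beside the members. Of 12 capsule and fibroblast markers, 6 of them members, 11 were negative (6 with library totals alone, 7 with equal Rn7sk counts), 0 were called and the median log2 fold change was -0.25; their summed level was 445 to 588 CPM in WT glands and 363 to 464 CPM in KO glands. All 10 endothelial markers were negative (7 with either other scaling), with a median of -0.38 and summed levels of 897 to 1088 CPM in WT glands and 701 to 859 CPM in KO glands. Of 10 pericyte and smooth muscle markers 7 were negative (2 with either other scaling) and 3 positive, with log2 fold changes from -1.26 to 4.74. None of them was called higher, and Cnn1 among them was at 0 in at least 1 library. Of these 10, 1 was called, the locus named Tagln (transgelin), falling from 19.5 ± 1.49 to 9.54 ± 1.01 CPM (SD, n = 3 each, edgeR adjusted p = 0.0205). This deposited locus runs from 45346779 to 45936058 on chromosome 9, and whether all its counts come from transgelin was not tested. All 8 chromaffin markers were positive with each of the 3 scalings and 3 were called higher, with a median of 0.86 and summed levels of 1878 to 2683 CPM in WT glands and 3879 to 4285 CPM in KO glands. Of 8 Schwann and sustentacular markers 7 were negative (6 with either other scaling), with a median of -0.65. Their summed levels were 106 to 180 CPM in WT glands and 101 to 130 CPM in KO glands. Negative values were found for 6 of 8 adipocyte markers (median -0.47) and 6 of 7 macrophage markers (median -0.27). With the other scalings these were 6 and 5. In these 3 lists 0 were called. The part of cell makeup in the members' differences was not tested.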

How the data were processed

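Counts, log2 CPM and length columns came from 1 table deposited by the authors. The raw counts are whole numbers per locus, per the file headers, and were the only values tested. The authors' deposited log2 values (log2 CPM and log2 scaled to Rn7sk, per library and per group, 2 of the group columns unmapped) were not used. The submitters' processing notes name GRCm38 and, among tools, STAR, StringTie, Trimmomatic, edgeR and Picard; their versions, the counter and its strand setting were not given in the sources used here. Per the labels' protocols, rRNA was depleted from 250 ng of RNA, libraries were directional and reads were paired, 100 bases each.

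Loci without a gene name (1.39% to 2.04% of counts) were left out. The 53103 named loci were filtered with filterByExpr, scaled by TMM and tested with edgeR 4.0.16 in R 4.3.3 (glmQLFit, robust; glmQLFTest, two-sided, genotype only), adjusted over 21358 loci by the Benjamini-Hochberg method. SE is the log2 fold change divided by the square root of F. Members, lists and tests were chosen with earlier results of these data known. Of each class, the 2 tested members with the smallest p and the 2 highest per kb were named, and of each list the called genes or else the 2 with the smallest p. Alternatives were other scalings and filters, DESeq2 1.42.0, a replicate block, unnamed loci kept in and libraries left out; leaving out the merged Col20a1 locus, libraries in the chain ratios, other scalings of whole lists, and Col5a3 or the deposited lengths in the class shares, was added after seeing the data.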

Additional observations from a re-analysis of the deposited data

How the results depend on the processing

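Numbers of called loci moved with several settings, and 393 loci were called in all. They were 672 with library totals alone, 711 with equal Rn7sk counts, 612 with at least 1 CPM in 3 libraries, 2626 with DESeq2, 16 without WT replicate 1 and KO replicate 3 together, and 15 (without KO replicate 1) to 644 (without WT replicate 2) with 1 library left out. Of the calls 76.6% were higher in KO in the reported fit, 94.8% with library totals alone, 94.1% with equal Rn7sk counts, 60.5% with DESeq2 and 53.0% without WT replicate 1. With the replicate number as a block 5 loci and 0 members were called. Same-numbered libraries did not deviate together (r = -0.047, 0.022 and -0.12). With 3 libraries a group, centred on the group mean, these r values cannot exclude a pairing. Members called numbered 1 (Col27a1) with library totals alone, with equal Rn7sk counts and with at least 1 CPM in 3 libraries, 6 with DESeq2, and 0 to 2 with 1 library left out, the 2 being Col15a1 and Col6a3 without WT replicate 1. With library totals alone the median was 0.084 for all members, 0.17 for basement membrane collagen IV, -0.077 for beaded filament collagen VI, 0.19 for FACIT collagens, -0.20 for short chain collagens VIII and X, 0.16 for transmembrane collagens, 0.043 for multiplexins XV and XVIII and 0.54 for other collagens. Signs of members were followed here only for those picked by p or level in each class or named outside the rule. Sign changes of the other members are not listed, and 18 of the 47 members were negative with library totals alone against 32 in the reported fit. The sign turned for Col5a1 (0.044), Col6a1 (0.041), Col14a1 (0.021), Col12a1 (0.095), Col23a1 (0.16), Col13a1 (0.16), Sparc (0.21), Col1a2 (0.13), Col3a1 (0.084) and Lum (0.18). With equal Rn7sk counts the median was 0.061 for all members, 0.14 for basement membrane collagen IV, -0.085 for beaded filament collagen VI, 0.17 for FACIT collagens, -0.22 for short chain collagens VIII and X, 0.14 for transmembrane collagens, 0.030 for multiplexins XV and XVIII and 0.50 for other collagens. The sign turned for Col5a1 (0.0072), Col6a1 (0.011), Col14a1 (0.026), Col12a1 (0.065), Col23a1 (0.14), Col13a1 (0.13), Sparc (0.16), Col1a2 (0.12), Col3a1 (0.084) and Lum (0.17). With no filter beyond 1 count the median was 0.22 for FACIT collagens. With at least 1 CPM in 3 libraries the median was 0.81 for other collagens. Without WT replicate 1 and KO replicate 3 together the median was -0.32 for all members, -0.19 for basement membrane collagen IV, -0.59 for beaded filament collagen VI, -0.35 for multiplexins XV and XVIII, 0.60 for other collagens, -0.51 for small leucine-rich proteoglycans and -0.67 for other matrix and fibroblast genes. The sign turned for Col4a1 (-0.092), Col13a1 (0.036), Sparc (0.16) and Fn1 (-0.87). With 1 library left out the medians ranged from -0.23 to 0.25 for fibrillar collagens, -0.54 to -0.24 for beaded filament collagen VI, -0.20 to 0.32 for FACIT collagens, -0.52 to -0.21 for short chain collagens VIII and X, -0.13 to 0.64 for other collagens and -0.57 to -0.14 for other matrix and fibroblast genes. Genes whose sign turned with 1 library left out ranged from -0.30 to 0.015 for Col5a1, -0.097 to 0.19 for Col4a1, -0.53 to 0.088 for Col14a1, -0.21 to 0.10 for Col23a1, -0.28 to 0.054 for Col13a1, -0.82 to 0.46 for Col28a1, -0.18 to 0.095 for Sparc, -0.26 to 0.25 for Col1a2, -0.35 to 0.26 for Col3a1, -0.76 to 1.14 for Fn1 and -0.22 to 0.086 for Lum. Medians that shifted by less than the spread between libraries but turned sign were those of fibrillar collagens, 0.13 with library totals alone and 0.12 with equal Rn7sk counts, and, with 1 library left out, of basement membrane collagen IV (-0.18 to 0.069) and transmembrane collagens (-0.23 to 0.077). The fibrillar median also turned to 0.078 with no filter beyond 1 count. The FACIT median turned to 0.051 with at least 1 CPM in 3 libraries and to 0.029 without WT replicate 1 and KO replicate 3 together. The FACIT medians count the merged Arfgap1/Col20a1 locus; without it they were 0.095 with library totals alone and 0.065 with equal Rn7sk counts. The cause of these shifts was not tested. None of the sign changes concerned a called gene. With 3 samples a group the exact test of a chain ratio cannot go below 0.1, and low loci such as Col17a1 rest on few counts.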
